A study of Caenorhabditis elegans with 2 samples.

Results

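RNA polymerase II was mapped over 39 genes that neurons of Caenorhabditis elegans use to build synapses and to make, load, release and recover neurotransmitters. The genes were chosen by name, from pan-neuronal, synaptic and transmitter identity genes, and make up 39 of the 19973 protein-coding genes of the annotation, which is Ensembl release 115 for the WBcel235 assembly (ce11). They fall into release and vesicle priming (11 genes), transport and active zone assembly (4), channels (6), endocytosis (4), other pan-neuronal genes (2), acetylcholine (3), glutamate (1), GABA (3) and monoamines (5). The list was drawn up with earlier results of these data known.

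At a synapse, vesicles filled with transmitter dock and are primed at the active zone, and calcium entering through voltage-gated channels triggers their fusion by a complex of SNARE proteins. Endocytosis then recovers the vesicle membrane. The transmitter that a neuron uses is set by the synthetic enzymes and vesicular transporters it makes, so enzyme and transporter genes mark subsets of neurons, whereas the release machinery is made by nearly every neuron. RNA polymerase II gathers at promoters and along transcribed genes, and a chromatin immunoprecipitation (ChIP) signal over a gene is a measure of its occupancy, not of RNA.

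The antigen was AMA-1, the large catalytic subunit of RNA polymerase II. Chromatin came from unfractionated L1 animals, the first larval stage, of the wild-type strain N2, with both sexes mixed and the age recorded as unknown. The 2 biological replicates form 1 group with no treatment or mutant, so the comparisons are between genes and between the replicates, and no test between conditions was possible. In whole animals, polymerase on a gene in fewer cells and less polymerase per cell cannot be told apart.

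The data are lists of regions scored by the authors' peak caller. There were 30000 regions in the list called on both replicates together and as many in that of each replicate, and 1328 passed into a consensus list. The pooled list is labelled as peaks and background for input to the consensus step. Presence in it alone therefore does not make a region a reproducible peak. Signal, the caller's own value, had a median of 9.56 in the pooled list, 6.42 in replicate 1 and 4.53 in replicate 2, and the consensus began at 34.3. Read depth is unknown, since no source used here gives it, and counting intervals cover only the counting of genes. A gene was given every region whose summit, the caller's point of highest signal, lay from 500 bp upstream of the gene's 5' end to its 3' end. Positions below are in bp from the 5' end, with negative values upstream, and the highest region is the one of highest signal.

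The sequences under 4 of these highest regions are shown because they sit at different places: before the start of snb-1 and dyn-1, in an intron of rab-3, and in the intron that unc-17 and cha-1 share. Each is 300 bases centred on the summit of the pooled list, read 5' to 3' on the gene's strand from WBcel235 (ce11, RefSeq), with the 11 bases around the summit in capitals. snb-1, the vesicle SNARE synaptobrevin, has chrV:6656728-6657027 on the minus strand, where the summit is at -377. For dyn-1, dynamin, the window is chrX:15568471-15568770 on the plus strand, with the summit at -269. For rab-3, the vesicle GTPase, it is chrII:5725170-5725469 on the minus strand, with the summit at 2533. For unc-17, the vesicular acetylcholine transporter, it is chrIV:3624105-3624404 on the minus strand, with the summit at 444.
snb-1: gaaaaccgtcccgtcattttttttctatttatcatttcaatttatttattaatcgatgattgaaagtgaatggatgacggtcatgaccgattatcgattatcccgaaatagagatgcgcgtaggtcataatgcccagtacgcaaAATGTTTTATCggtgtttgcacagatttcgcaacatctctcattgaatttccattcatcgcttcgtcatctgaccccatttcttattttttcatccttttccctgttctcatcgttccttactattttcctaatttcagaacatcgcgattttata
dyn-1: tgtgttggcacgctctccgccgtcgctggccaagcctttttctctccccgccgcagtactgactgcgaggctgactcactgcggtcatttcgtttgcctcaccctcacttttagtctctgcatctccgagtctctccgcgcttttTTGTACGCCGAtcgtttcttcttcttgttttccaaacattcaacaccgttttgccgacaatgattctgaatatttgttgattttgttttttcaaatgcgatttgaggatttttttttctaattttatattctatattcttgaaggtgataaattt
rab-3: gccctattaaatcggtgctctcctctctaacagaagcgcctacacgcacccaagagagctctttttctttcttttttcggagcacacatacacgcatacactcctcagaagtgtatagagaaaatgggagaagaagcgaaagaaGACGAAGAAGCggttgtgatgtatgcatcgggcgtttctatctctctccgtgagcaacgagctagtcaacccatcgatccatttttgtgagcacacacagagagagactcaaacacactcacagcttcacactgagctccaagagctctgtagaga
unc-17: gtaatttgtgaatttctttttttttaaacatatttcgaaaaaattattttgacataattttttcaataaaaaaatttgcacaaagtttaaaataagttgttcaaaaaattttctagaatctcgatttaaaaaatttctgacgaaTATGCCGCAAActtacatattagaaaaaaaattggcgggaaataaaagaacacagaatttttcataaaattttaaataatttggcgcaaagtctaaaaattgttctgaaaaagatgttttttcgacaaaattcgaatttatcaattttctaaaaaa
The unc-17 window held 21.3% G and C, against 36.3% for snb-1, 43.0% for dyn-1 and 47.3% for rab-3.

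The upstream sequences of a pair of GABA genes are shown because they carry a known regulatory site and held no summit in any list. UNC-30 is the homeodomain protein that switches on unc-25, the GABA synthetic enzyme, and unc-47, the vesicular GABA transporter, in motor neurons, and TAATCC is the core of its site. Both sequences are the 250 bases before the 5' end from WBcel235, with TAATCC on either strand in capitals. unc-25 is chrIII:12942401-12942650 on the plus strand and unc-47 is chrIII:10186261-10186510 on the minus strand.
unc-25: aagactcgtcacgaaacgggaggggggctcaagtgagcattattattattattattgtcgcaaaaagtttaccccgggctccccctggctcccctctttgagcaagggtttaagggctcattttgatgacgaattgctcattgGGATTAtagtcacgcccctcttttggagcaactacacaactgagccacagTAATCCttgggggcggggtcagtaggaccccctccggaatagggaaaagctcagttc
unc-47: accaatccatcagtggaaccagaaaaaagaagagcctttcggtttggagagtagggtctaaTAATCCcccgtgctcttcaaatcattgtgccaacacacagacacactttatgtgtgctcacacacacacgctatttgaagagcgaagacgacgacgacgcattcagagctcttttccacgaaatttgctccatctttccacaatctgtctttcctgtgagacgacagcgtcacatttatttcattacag
TAATCC occurred 2 times before unc-25 and 1 time before unc-47. Over the window from 250 bases before to 50 bases after the 5' end, 7 of the 39 genes held it on either strand (17.9%), against 9.37% of all protein-coding genes. These were ric-4, snb-1, sng-1, unc-10, rab-3, unc-25 and unc-47. Among the 300-base windows of the 26 different highest regions it was in 0, which allows a share of up to 11.5%, against 8.89% of all pooled regions. TATAAA on either strand was in the same promoter window of 9 of the 39 genes (23.1%), against 37.9% of all genes. A match is a string of letters and not a measured site.

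Most of the 39 genes held a region of the pooled list, which includes background. A region was present in the pooled list at 27 of 39 genes (69.2%, exact 95% binomial interval 52.4 to 83.0), against 42.8% of all protein-coding genes. The genes are long, with a median of 6441 bp against 2027 bp for all genes, and a long window holds more regions. Each gene was therefore set beside its length neighbours, the 200 other protein-coding genes closest in length. The neighbours had a region in 61.9% of cases, which would be 24.1 genes of 39. That share lies inside the counting interval of the 39 genes, so the count of 27 is not a result particular to them.

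The replicates gave the same picture at a slightly different level. In replicate 1, 25 genes had a region (64.1%), against 62.2% of length neighbours and 42.6% of all genes. In replicate 2, 30 did (76.9%), against 66.0% of neighbours and 44.8% of all genes. Both replicate lists held a region for 23 (59.0%), against 53.8% of neighbours and 34.7% of all genes. No consensus peak fell in any of the 39 windows, which allows a share of up to 7.69%, against 4.68% of all genes and 6.99% of length neighbours. The neighbours' share would be 2.73 genes and lies under that limit, so the count of 0 is not particular to these genes either.

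All 3 lists held a region for 22 genes, and 7 genes had none in any list: unc-10, syd-2, unc-36, cho-1, unc-47, unc-46 and cat-2. The others were split. tbh-1 was in the pooled and replicate 1 lists, and snt-1, sad-1, unc-2 and unc-25 were in the pooled and replicate 2 lists. aex-3 had a region in replicate 1 alone, and nca-2, cat-1 and tph-1 in replicate 2 alone. unc-18 had regions in both replicates and none in the pooled list.

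**Figure D1:**
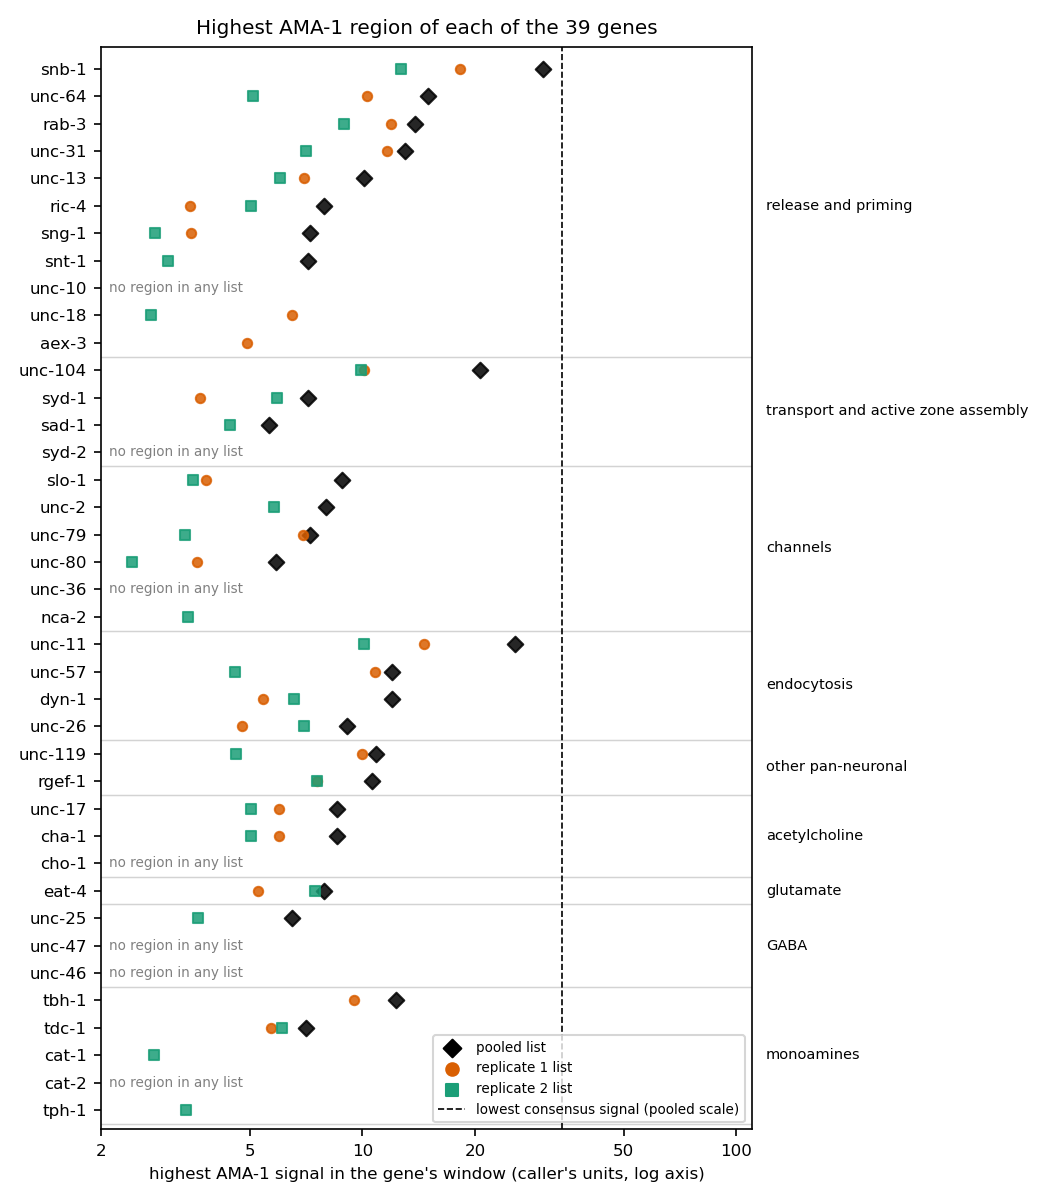
Highest signal in the window of each of the 39 genes, grouped by role, on a log axis in the caller's units; diamonds are the pooled list, circles replicate 1, squares replicate 2 and the dashed line the lowest consensus signal. The highest pooled value, 30.4 at snb-1, lies left of the line at 34.3, and 7 genes carry no region in any list.

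To place each gene, its highest signal was given a percentile among its 200 length neighbours, with a gene without a region counted as 0. The median percentile of the 39 genes was 40.5 in the pooled list, 41.5 in replicate 1 and 53.0 in replicate 2, a standard deviation (SD) of 8.13 between the 2 replicates. The 5131 genes that served as neighbours had medians of 47.0, 47.0 and 47.5 by the same measure. In the pooled list, 15 of the 39 lay above the median of their neighbours (38.5%), against 39.6% of all genes and 47.7% of the neighbour genes. The count was 16 in replicate 1 (41.0%), where all genes gave 39.4% and the neighbour genes 47.8%. It was 20 in replicate 2 (51.3%), where they gave 40.3% and 48.1%. The pooled median was lower than that of the neighbour genes by less than the SD between replicates, and replicate 2 lay on the other side of it.

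Among genes that had a region, the signal was lower. The median of the highest pooled signal was 8.84 over the 27 genes with one, against 13.5 over length neighbours with one and 13.7 over all such genes. The values were 6.46 against 9.29 in replicate 1 and 5.03 against 6.05 in replicate 2, so the members' median was the lower in all 3 lists. In the pooled list 12 of the 27 were above the median signal of the pooled list. That count was not made for length neighbours or all genes, so it has no share to be read against. The windows of the 39 genes held 76 pooled regions (73 different ones) and 74 in replicate 1, where the means of their length neighbours add up to 118 and 119. In replicate 2 they held 100, against 118. Length and number of regions were weakly related across the 39 genes, with Spearman's rho of 0.24 in the pooled list, 0.20 in replicate 1 and 0.49 in replicate 2, while all 19973 genes gave 0.32, 0.33 and 0.36.

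Among the genes of release and priming, 8 of 11 had a pooled region, where length neighbours had one in 59.7% of cases. The median percentile was 49.0 in the pooled list, 66.5 in replicate 1 and 56.5 in replicate 2, and snb-1 had the highest pooled signal of the 39 genes. snb-1 (WBGene00004897, chrV:6655562-6656501, minus strand) had a highest signal of 30.4 in the pooled list, 18.2 in replicate 1 and 12.7 in replicate 2. Its summit at -377, whose sequence is shown above, had replicate signals of 17.9 and 12.7 within 200 bp. snb-1 is short, 940 bp, and stood at percentiles 93.0, 90.5 and 93.5 among genes of its length. With a window from 250 bp upstream its highest pooled signal was 15.3, below unc-11 with 25.6 and unc-104 with 20.6. Further pooled regions lay at 638, with signal 8.9, and at 919, with signal 15.3. A consensus peak of signal 50.1 lay 184 bp past its 3' end, in the window of the next gene, syx-18, and was not counted for snb-1.

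The partners of synaptobrevin in the SNARE complex had lower signals. unc-64, syntaxin (WBGene00006798, chrIII:13277258-13283887), had 15 in the pooled list, 10.3 in replicate 1 and 5.1 in replicate 2, with the highest region of all 3 lists close to 243, in a coding exon near its start. ric-4, which encodes the SNAP-25 protein, had 7.87, 3.46 and 5.02, with the pooled summit inside the gene, at -160 from an internal transcript start. Its window was the least unique in sequence, with 80.9% of its 31-base words found once in the genome. unc-18, the syntaxin-binding protein, had 6.46 in replicate 1 and 2.71 in replicate 2. The nearest pooled summit to unc-18, of signal 8.5, lay at -719, which is 219 bp outside its window.

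Vesicle proteins and priming factors ranged widely. rab-3 (WBGene00004267, chrII:5721767-5727853) had 13.8 in the pooled list, 11.9 in replicate 1 and 8.92 in replicate 2. Its highest region lay in intron sequence in each list, at 2533 in replicate 1 and 2702 in replicate 2, and the pooled summit was at -590 from the start of a shorter annotated transcript. unc-31, CAPS, needed for dense core vesicle release (WBGene00006767, chrIV:12773867-12788354), had 13.0, 11.6 and 7.07, at 13420 in the pooled list, which is -173 from an internal transcript start. Thus rab-3 and unc-31 had their strongest region away from the annotated 5' end in every list. snt-1, the calcium sensor synaptotagmin, had 7.15 in the pooled list, no region in replicate 1 and 3.02 in replicate 2. sng-1, the vesicle protein synaptogyrin, had 7.24, 3.47 and 2.78, all close to -213. unc-13, the priming factor, is 31332 bp long and had 7 pooled regions, of which the highest, 10.1, lay 137 bp before the 3' end. Its replicates had 6.98 and 6.02 at other places in the gene. aex-3, the exchange factor for RAB-3, had 4.9 in replicate 1 and no region in the other lists, and unc-10, the active zone protein RIM, had none at all.

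In transport and active zone assembly, unc-104 stood above the other 3 genes. unc-104, the kinesin that carries synaptic vesicle precursors (WBGene00006831, chrII:6994987-7010625), had 20.6 in the pooled list, 10.1 in replicate 1 and 9.9 in replicate 2. The highest region of all 3 lists was at its 3' end, 168 bp before the end of the gene in the pooled list, in untranslated exon sequence. A pooled region of 14.6 at 2164 was the next highest of its 5. syd-1, an active zone assembly protein, had 7.17, 3.67 and 5.92. sad-1, a kinase of presynaptic assembly, had 5.63 in the pooled list and 4.41 in replicate 2. syd-2, liprin-alpha, had no region in its window, and the nearest pooled summit, of signal 9.36, was at -583, 83 bp outside the window.

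The 6 channel genes had the lowest median percentile of all roles in each list. None of them was above the median of its length neighbours in any of the 3 lists, and the median percentile was 22.2 in the pooled list, 18.4 in replicate 1 and 26.8 in replicate 2. They are long, with a median of 16084 bp, and 4 of 6 had a pooled region where their neighbours had one in 78.2% of cases. A gene without a region scores lower where more of its length neighbours hold one. Without a pooled region, nca-2 scored 12.2 and the shorter unc-47 28.7. The order of the roles thus depends partly on gene length. slo-1, the calcium-activated BK potassium channel, had 8.84, 3.82 and 3.53. unc-2, the voltage-gated calcium channel, is the longest of the 39 genes at 52607 bp, and had 1 pooled region of 7.97 in an intron at 31172, no region in replicate 1 and a highest signal of 5.79 in replicate 2. unc-79 and unc-80 encode partners of the sodium leak channel. unc-79 had 7.23 in the pooled list, 6.94 in replicate 1 and 3.35 in replicate 2. unc-80 had 5.87, 3.6 and 2.42. nca-2, a pore subunit of that channel, had 3.42 in replicate 2 alone, and unc-36, an accessory calcium channel subunit, had no region. With 6 genes in the role, and no test, this describes these genes and not channels in general.

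All 4 endocytosis genes had a region in every list, where length neighbours had a pooled region in 60.7% of cases. The median percentiles were 69.2 in the pooled list, 67.0 in replicate 1 and 70.5 in replicate 2. unc-11, the AP180 clathrin adaptor (WBGene00006751, chrI:3798396-3805739), had 25.6, 14.6 and 10.1 and the largest number of pooled regions, 7, as did unc-13. Its highest pooled summit was at -205, and a region of 21.9 followed at 631. Replicate 2 was highest at -107 and replicate 1 inside the gene, at 1560. unc-57, endophilin (WBGene00006791, chrI:4675133-4679448), had 12 in the pooled list, 10.8 in replicate 1 and 4.55 in replicate 2, with the pooled summit at -43. The highest region of unc-57 in replicate 2 was elsewhere, at 3322. dyn-1 (WBGene00001130, chrX:15568890-15573021) had 12, 5.43 and 6.54, and the replicates had 5.37 and 6.54 near its pooled summit. unc-26, synaptojanin, had 9.09, 4.77 and 6.96, with the pooled summit 106 bp before its 3' end. Dynamin also acts outside neurons, and the part of other cells in these signals was not tested.

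The other pan-neuronal genes were both above their neighbours in all 3 lists. unc-119, a lipid-binding trafficking protein (WBGene00006843, chrIII:10902641-10908935), had 10.9 in the pooled list, 9.99 in replicate 1 and 4.59 in replicate 2. Its pooled summit lay at 5257 in a coding exon, and replicate 2 was highest at 2888. rgef-1, a Ras guanine nucleotide exchange factor whose promoter is used as a pan-neuronal driver, had 10.6, 7.54 and 7.55 with the pooled summit at -94.

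The 12 transmitter identity genes carried regions less often than the 27 pan-neuronal and synaptic genes, by 6 of 12 against 21 of 27 in the pooled list. They are shorter, with a median of 4738 bp against 8006 bp, and their length neighbours had regions in 54.6% and 65.2% of cases. The median percentile was 34.9 against 47.0 in the pooled list, 30.8 against 42.0 in replicate 1 and 44.5 against 56.5 in replicate 2. The lower value was thus on the same side in all 3 lists, of which the pooled list is made from the same reads as the others. Gene numbers are small and no test of this difference was made.

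For acetylcholine, unc-17 and cha-1, the choline acetyltransferase, form a nested locus with a common first exon, and all of their pooled regions lay in both windows. Both windows held the same highest region, with 8.56 in the pooled list, 5.99 in replicate 1 and 5.03 in replicate 2. The pooled summit was at 444 from the start of unc-17 and 442 from that of cha-1, inside the first intron. Replicate 1 had a signal of 5.10 near it and its own highest region at 1728 of unc-17, while replicate 2 was highest at 2153. Regions past the 3' end of unc-17, in the window of cha-1 alone, lay at 7962 of cha-1 in replicate 1, with signal 3.55, and at 6818 in replicate 2, with signal 2.53. cho-1, the high-affinity choline transporter, had no region in any list. eat-4, the vesicular glutamate transporter, had 7.88 in the pooled list, 5.26 in replicate 1 and 7.46 in replicate 2. Its percentile was 54 in the pooled list, 53.5 in replicate 1 and 80.5 in replicate 2, and the pooled summit was 346 bp before the 3' end.

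None of the 3 GABA genes was above the median of its length neighbours in any list. unc-25 had 6.46 in the pooled list at 849, no region in replicate 1 and 3.62 in replicate 2, and its percentile was 40.5 in the pooled list. unc-47 and unc-46, the transporter and its sorting partner, had none in any list, and the nearest pooled summits were 16767 bp and 8512 bp outside their windows. The region of unc-25 closest to its start was that of replicate 2 at 398, with signal 2.76.

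Of the 5 monoamine genes, tdc-1 alone had a region in all 3 lists. tdc-1, the tyrosine decarboxylase that makes tyramine, had 7.05 in the pooled list, 5.71 in replicate 1 and 6.11 in replicate 2, with percentiles of 61.0, 63.0 and 79.0. tbh-1, the tyramine beta-hydroxylase that makes octopamine (WBGene00006541, chrX:15500256-15504895), had 12.3, 9.51 and no region in replicate 2. Its pooled summit was 3 bp before the 3' end and also lay in the window of suox-1, and without such shared regions tbh-1 had no pooled region. In replicate 2 a summit of 2.81 lay within 200 bp of it but outside the window of tbh-1. tph-1, the tryptophan hydroxylase of serotonin synthesis, had 3.37 in replicate 2 alone, and cat-1, the vesicular monoamine transporter, had 2.77 there alone. cat-2, the tyrosine hydroxylase of dopamine synthesis, had none, with the nearest pooled summit 1930 bp outside its window.

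**Figure D2:**
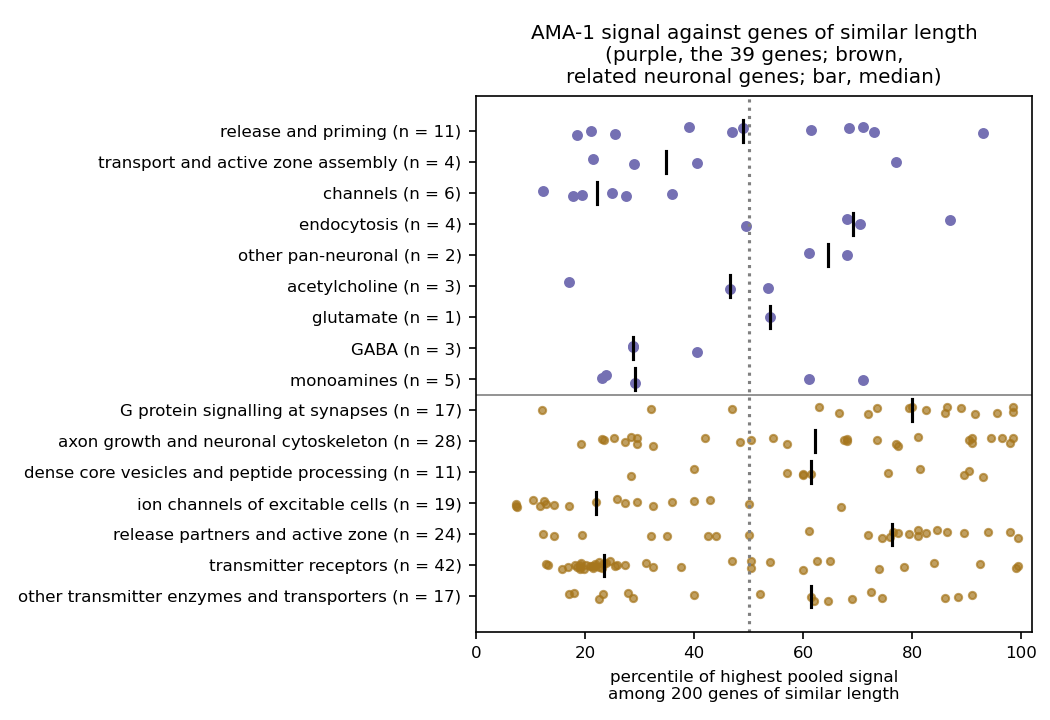
Percentile of each gene's highest pooled signal among 200 genes of similar length, by role for the 39 genes (top) and for the lists of related neuronal genes (bottom); each dot is a gene, bars are medians and the dotted line is 50. Channels sit lowest in the top panel, with a median of 22.2, and endocytosis highest, with 69.2. The median over all protein-coding genes was 35.5, not 50.

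The position of the strongest region along the gene was also compared with length neighbours. In the pooled list the highest region was within 500 bp of the 5' end in 11 of 27 genes (40.7%, neighbours 38.4%), in the body in 10 (37.0%, neighbours 50%) and in the last 500 bp in 6 (22.2%, neighbours 11.5%). The 6 were unc-104, unc-13, unc-26, eat-4, tdc-1 and tbh-1. In replicate 1 the last 500 bp held it in 4 of 25 genes (16.0%, neighbours 11.3%), and in replicate 2 in 5 of 30 (16.7%, neighbours 11%). The 5' end held it in 5 of 25 in replicate 1 (20%, neighbours 40.3%) and in 8 of 30 in replicate 2 (26.7%, neighbours 33.5%).

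Counting all regions rather than the highest, 12 of 76 pooled regions lay in the last 500 bp (15.8%), against 6.83% of neighbours' regions. The shares were 8.11% of 74 in replicate 1, where neighbours had 6.69%, and 14.0% of 100 in replicate 2, where they had 7.05%. In both replicates a 3' region was present at eat-4, snb-1, unc-104 and unc-57, and a 5' region at 9 genes, among them dyn-1, rgef-1, sng-1 and unc-11. The replicates need not share a site for this, as at unc-57, with 5' regions at -43 in replicate 1 and 350 in replicate 2. Neither count was made for neighbours. Introns held 45 of the 76 pooled summits (59.2%), with the regions shared by unc-17 and cha-1 counted for each gene. This share was not computed for neighbours, so it cannot be called particular to these genes. Of the highest pooled regions, 3 of 27 also lay in another protein-coding window, at unc-17, cha-1 and tbh-1, against 15% of those of neighbours. That of sng-1 also lay in the windows of T08A9.16 and T08A9.17, which do not code for protein. The unc-13 summit was at -681 from the start of spe-4, on the same strand. Place alone thus does not assign a region to a gene.

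**Figure D3:**
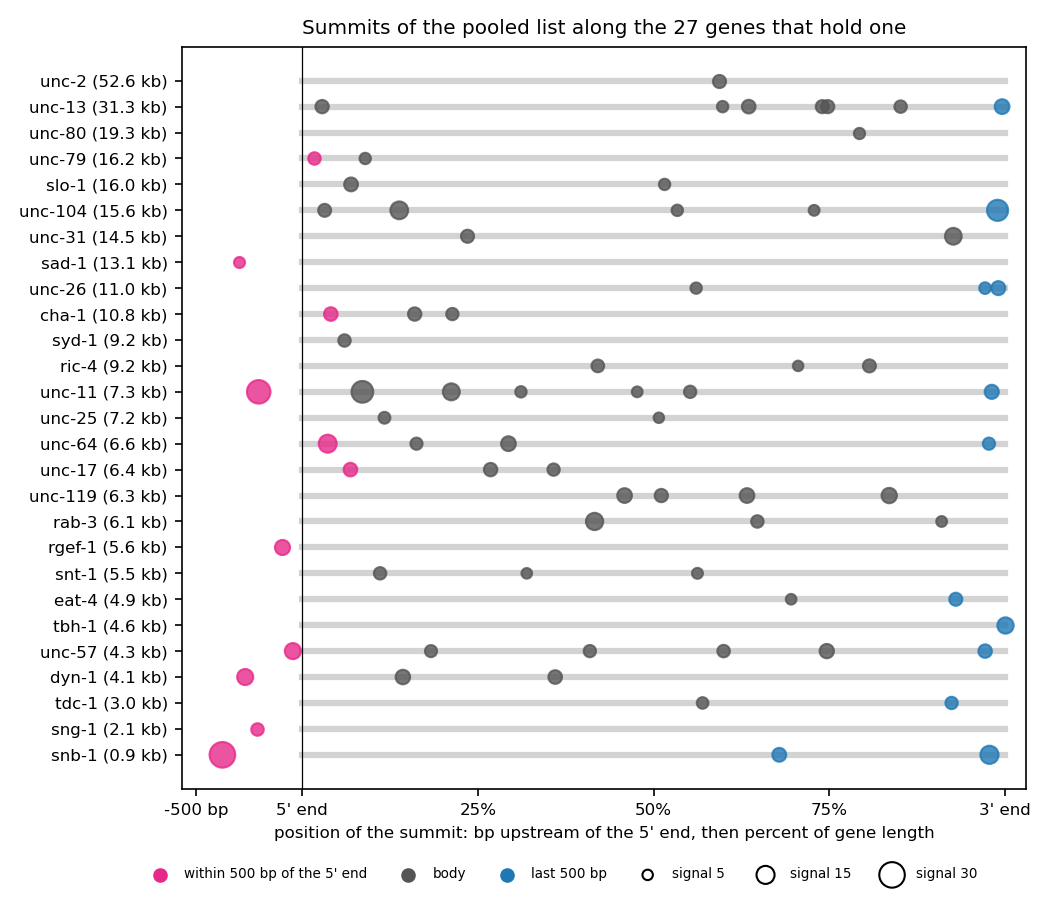
Summits of the pooled list along the 27 genes that hold at least 1, sorted by length; the stretch left of the line is in bp upstream of the 5' end and the rest in percent of gene length, with dot area growing with signal and colour giving the zone. The largest dots are at the 5' ends of snb-1 and unc-11, followed by unc-11 at 631 and the 3' end of unc-104.

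The annotated 5' end of many worm genes is a trans-splice site, where a short leader RNA is joined, and transcription starts upstream of it. TTTCAG, the usual acceptor sequence, stood directly before the annotated 5' end of 6 of the 39 genes (15.4%), against 12.3% of all genes. These were cha-1, dyn-1, ric-4, snb-1, snt-1 and tdc-1. The highest pooled summit lay upstream of that point at snb-1 and dyn-1, at -377 and -269, and downstream at the other 4 genes. In replicate 1 snb-1 and dyn-1 were also highest downstream, at 909 and 1498.

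The replicates ordered these genes about as well as they ordered all genes. Spearman's rho of highest signal in replicate 1 and replicate 2 was 0.54 across the 23 genes with a region in both, and 0.56 across the 6936 such genes in all, given as a description across genes that share the same libraries. The strongest region lay at the same site, within 200 bp, in 5 of 23 genes, namely unc-64, rab-3, unc-31, sng-1 and unc-104. A shared site of this kind was found for 33.2% of length neighbours and 42.2% of all genes with regions in both. Percentiles were higher in replicate 2 than in replicate 1 for 24 of 39 genes, a count that was not made for neighbours or all genes. tbh-1 differed most in the other direction, with 72.0 in replicate 1 and 23.0 in replicate 2.

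**Figure D4:**
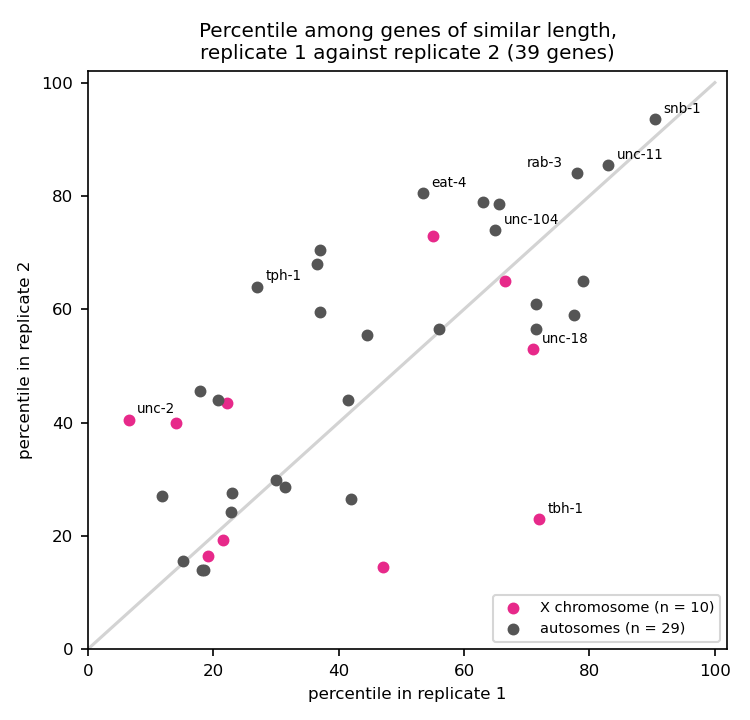
Percentile of each of the 39 genes among 200 genes of similar length in replicate 1 (x axis) and replicate 2 (y axis), with the line of equal values; pink dots are the 10 genes on the X chromosome. snb-1 is high in both, at 90.5 and 93.5, and tbh-1 lies far below the line.

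X-linked genes had lower values than autosomal ones, with median percentiles of 25.2 against 47.0 in the pooled list, 34.6 against 41.5 in replicate 1 and 40.2 against 56.5 in replicate 2. Of the 10 X-linked genes 5 had a pooled region, where length neighbours had one in 57.9% of cases, and 3 had regions in both replicates (neighbours 50.7%). Of the 29 autosomal genes 22 had a pooled region, against 63.3% of neighbours, and 20 had regions in both (neighbours 54.8%). Over all other protein-coding genes, 37.0% of those on X and 43.7% of those on autosomes had a pooled region. The shares were 34.1% and 43.9% in replicate 1, and 45.7% and 44.6% in replicate 2. A lower share on X in the pooled and replicate 1 lists is therefore not particular to these genes. No test of this difference was made. The X chromosome held 13.0% of all regions of replicate 1 and 16.4% of those of replicate 2.

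Genes of other tissues, with 4 markers each, place these values. A pooled region was present at 4 ubiquitous, 3 muscle, 2 epidermal, 1 gut and 1 germ line marker genes. The ubiquitously used rps-1, rpl-3 and eef-1A.1 had pooled signals of 97.8, 139 and 71, against 30.4 at snb-1. The ubiquitous act-1 had 23.6, below snb-1. In body muscle, unc-54 myosin had 21.5, unc-15 paramyosin 22.5 and unc-22 15.2, and the gut filament gene ifb-2 had 20.3. The muscle gene myo-3 and the gut genes elt-2 and ges-1 had no pooled region. They had 9.14, 3.77 and 2.41 in replicate 2 alone. The epidermal collagen gene rol-6 had no region in replicate 1 and 20.2 in replicate 2, and dpy-7 none and 9.17. Their pooled signals were 20.6 for rol-6 and 5.42 for dpy-7. The adult genes col-19, bli-1 and vit-6 and the germ line genes pgl-1, glh-1 and nos-2 had no pooled region. The germ line gene mes-2 had 7.51 in the pooled list, 12.9 in replicate 1 and 12.6 in replicate 2. The part of such replicate differences in the values of the neuronal genes was not tested.

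A wider set of 158 related neuronal genes also ranged widely between functions. As a whole 103 had a pooled region (65.2%), against 60.6% of their length neighbours. A consensus peak was present at 10 of the 158, where all genes gave 4.68% and the length neighbours of the 39 genes 6.99%. This count was not set against length neighbours of the related genes themselves. Their median percentile was 50.2, and 79 were above the median of their neighbours. Ion channels of excitable cells had regions at 7 of 19 genes, against 71.2% of neighbours, and 1 of 19 was above its neighbours in the pooled list, 2 in replicate 1 and 3 in replicate 2, with a median percentile of 22. The highest were ccb-1, a calcium channel beta subunit, with 13.3, and unc-103, an ERG potassium channel, with 8.83. Transmitter receptors had regions at 16 of 42 genes, against 59.5% of neighbours, and a median percentile of 23.5. The glutamate receptor gene glr-2 held a consensus peak of 101 and glr-4 one of 64.3. The latter also lay in the window of srlf-1. For related genes, sharing was recorded for protein-coding windows only.

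Median percentiles were higher for the other lists. Of 17 genes of G protein signalling at synapses, 14 were above their neighbours in the pooled list, 14 in replicate 1 and 16 in replicate 2, with a pooled median percentile of 80.0 and regions at 16, against 60.7% of neighbours. egl-30, the Gq alpha subunit, had a consensus peak of 57.4, and eat-16, a regulator of G protein signalling, one of 53.6 that also lay in the window of ocrl-1. Release partners and active zone genes had regions at 21 of 24 (neighbours 63.7%), a median percentile of 76.2 and 3 consensus peaks, at the kinase gene cdk-5 with 108, unc-16, a kinesin cargo adaptor, with 72.3 and klc-2, a kinesin light chain, with 36.1. The peak of cdk-5 also lay in the window of kel-3. Genes of axon growth and the neuronal cytoskeleton had regions at 21 of 28 (neighbours 59.6%) and a median of 62.2, with consensus peaks of 48.7 at unc-14, 42.9 at tba-1, an alpha tubulin, and 39.3 at dlk-1, a kinase of axon regrowth. All 11 genes of dense core vesicles and peptide processing had a region (neighbours 56.9%), with a median of 61.5, led by ida-1 with 31.1 and sbt-1 with 27.8. The 17 other transmitter enzymes and transporters had regions at 11 (neighbours 51.3%) and a median of 61.5, led by gta-1, a GABA transaminase, and vglu-2, a vesicular glutamate transporter family member, with 25.4 each. Many genes of these lists are also used outside neurons, and how far that sets their values was not tested.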

How the data were processed

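AMA-1 ChIP-seq of 2 biological replicates of N2 L1 larvae was analysed from region lists on ce11. Per the deposited file descriptions, each replicate's list came from its alignments and a control, the pooled list from both replicates' alignments, and the consensus list from applying the irreproducible discovery rate (IDR) to these. The deposited signal of each region, as the authors' peak caller wrote it, was not rescaled, so signals of separate lists are set side by side or as percentiles. The deposited −log10 q-value replaced signal in an alternative, and the deposited summit offset gave positions. The sources used here give neither the peak caller, its version and the IDR threshold nor the control's preparation and the depth. Lists on ce10 were not used, because the annotation (Ensembl 115) and genome are of ce11.

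The 39 genes and the lists of related genes were chosen with earlier results of these data known, so nothing here is independent support. Of 161 related genes listed, 3 had no match by symbol and 158 were used. No test was made, because 1 group with no condition allows none, and genes are not replicates. Intervals are exact 95% binomial, and a count of 0 was given a limit of 3 counts. Length neighbours were the 200 other protein-coding genes closest in length. Uniqueness was the share of a window's 31-base words that occur once genome-wide. Given in full were the 10 genes of highest pooled signal, those whose region another window shared and those without a region, and, of related genes, the 2 highest per list and any with a consensus peak. The computations were tested on simulated data and used Python 3.11.15, numpy 2.4.6, pandas 2.3.3, scipy 1.17.1 and matplotlib 3.10.9.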

Additional observations from a re-analysis of the deposited data

How the results depend on the processing

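Of 82 comparisons of a summary value with an alternative, 66 stayed within the limits set for a change and 16 did not. Keeping only regions above the median signal of their list left 12 genes with a pooled region and 10 with one in both replicates, a median percentile of 31.8 (33.9 for the related genes), and 6 genes with the highest region at the 5' end and 3 in the last 500 bp. Scoring only the 500 bp around the 5' end gave medians of 31.2 and 32.8. Drawing length neighbours only among genes with a region gave 14.0 and 20.2, with 5 of the 39 genes above their neighbours. Only the neighbours were restricted in this way. Genes without a pooled region stayed in both sets and by construction ranked below all such neighbours. This lowers both medians and the count, so they do not describe how genes with a region compare with each other. An end zone of 250 bp left 5 genes with the highest region at the 5' end. Requiring replicate summits within 200 bp of each other left 15 genes in both lists. Under these settings, counts of genes with a region or with the highest region at an end were computed for the 39 genes alone. Whether they fell more than those of length neighbours was not tested. Using a single replicate's list gave 25 to 30 genes with a region, a median percentile of 41.5 to 53.0 (48.5 to 54.8 for related genes), 16 to 20 genes above their neighbours, 5 to 8 genes highest at the 5' end and 4 to 5 highest in the last 500 bp. Of 59 such comparisons for single genes 3 moved: with a window from 250 bp upstream the highest pooled signal was 15.3 at snb-1 and 9.75 at dyn-1, and tbh-1 had no region once shared regions were left out. Other causes of the changes were not tested. Alternatives for the last 500 bp, the related genes and single genes were added after the data were seen. No paired analysis was possible because the replicates form 1 group. Unknown depth limits what a missing region means: it shows only that no listed summit fell in the window.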
